A study of Macaca mulatta with 24 samples.

Results

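The interferon-stimulated genes described here are 38 named genes, chosen by symbol as a textbook set of transcripts that interferons induce, among the 17208 genes of the deposited expression table. All 38 were found in the table. Averaged over the animals, 30 of them reached 1 TPM (transcripts per 1e+06 transcripts), against 13637 genes in all, and 14 of them averaged 10 TPM or more, against 9197 genes in all. TPM is a level scaled for gene length and for the library total, so levels can be set beside each other between genes.

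RNA-Seq was performed on the nucleus accumbens core (NAcc) of 24 unrelated adult male rhesus macaques, 1 library per animal. Control animals (n = 8) received water and a calorie-matched maltose dextrin solution, low drinkers (LD*, n = 8) took 1.58 ± 0.526 g/kg ethanol a day (SD) and high drinkers (HD*, n = 8) took 3.14 ± 0.326 g/kg a day. Per the paper, the LD* group combines light and binge drinkers, which the public labels do not separate. The HD* group held 4 heavy (HD) and 4 very heavy (VHD) drinkers, with 2.92 ± 0.163 and 3.37 ± 0.293 g/kg a day. Drinkers were first induced to take preset ethanol doses, after which drinking was voluntary and was not interrupted before necropsy. The level of intake was thus self-chosen among drinkers, whereas controls were given no ethanol. All animals went through the same training, housing and necropsy. Replicates are separate animals, numbered within each group. They came from 4 cohorts that were spread unevenly over the groups. Of the controls 3 were from cohort 5, 2 from 7a and 3 from 7b, the LD* group drew 2 animals from cohort 4, 3 from 7a and 3 from 7b, and the HD* group drew 4 each from cohorts 5 and 7a. HD and VHD animals were split 2 and 2 over cohorts 5 and 7a.

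Type I interferons bind the IFNAR1/IFNAR2 receptor, and the kinases JAK1 and TYK2 then activate STAT2, which acts with IRF9 in the ISGF3 complex to switch on genes with an interferon-stimulated response element. The products block viral entry, translation or replication, sense viral RNA, modify proteins with the ubiquitin-like ISG15, and raise antigen presentation on MHC class I. In brain, microglia and astrocytes are known to express many of these genes, and neurons respond as well.

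Libraries that stood apart are given first. Animal HD* 8 (VHD) had the lowest value of 24 animals in 43.1% of all genes tested and a trimmed-mean scaling factor of 0.687. Control 6 had the highest value in 17.8% of all genes, and its summed TPM over 10 striatal projection neuron markers was 1019, against 2816 to 12121 in the other animals. All 10 of these markers, all 13 microglia, 8 astrocyte and 8 oligodendrocyte markers, and the 12 endothelial and mural markers found in the table averaged 1 TPM or more, while 9 of the 17 blood and lymphocyte markers found, MS4A1, NKG7 and GZMB among them, were below it. In bulk tissue, fewer cells of a type and less RNA per cell cannot be told apart.

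The basal levels of the interferon-stimulated genes covered a wide range. B2M, the light chain of MHC class I, had the highest level, with a mean of 636 ± 237 TPM (SD, n = 24). IFI6, a small antiviral membrane protein, followed with 422 ± 128 TPM, and IFI27, a mitochondrial and nuclear membrane protein, was at 53.5 ± 23.3 TPM. The other members all had means at or below that of IRF9, 25.6 ± 9.89 TPM.

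Of the 38 members, 8 did not reach a mean of 1 TPM and were left out of the main tests. They were IFIT1 at 0.131 TPM, SAMD9 at 0.0712 TPM and OASL at 0.204 TPM, and, between 0.707 and 0.952 TPM, XAF1, EPSTI1, SAMD9L, HERC5 and USP18. IFIT1 belongs to a family of closely related paralogs, and only uniquely aligned reads were counted, so its low level beside IFIT3 at 23.5 TPM is uncertain. The same limit applies to IFIT2, IFIT3 and IFIT5, the OAS genes, MX1 and MX2, and SAMD9 and SAMD9L. The interferons themselves were close to 0. Of 8 ligand genes looked up, 4 were in the table (IFNA1, IFNA2, IFNE and IFNG), and none exceeded 0.217 TPM in any animal.

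The members also differed in how much they varied between animals. ISG15 had the largest SD of the 30 tested members, 1.00 on the log2(TPM + 1) scale over 24 animals, and a 17.3-fold range of TPM. MX1, a dynamin-like GTPase that traps viral nucleocapsids, followed with an SD of 0.77 and an 11.3-fold range. By range of TPM alone the widest was IFI44L, at 19.7-fold with a lower SD of 0.53. At the other end, the RNA sensor DHX58 had an SD of 0.23 and a 1.94-fold range. By this measure ISG15 exceeded 98.9% of all genes tested and DHX58 exceeded 22.2% of them.

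**Figure D1:**
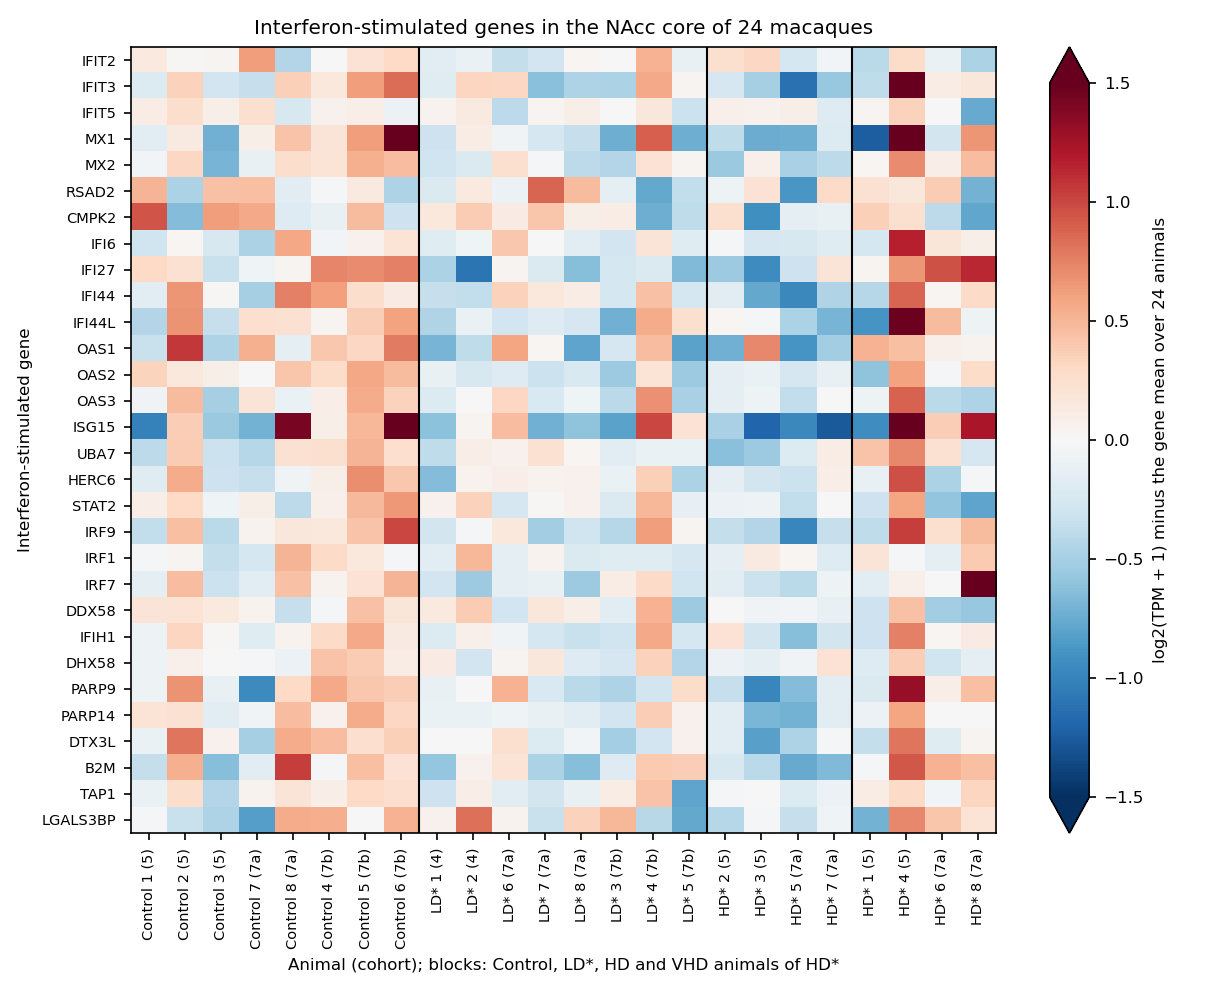
Each cell shows log2(TPM + 1) of 1 interferon-stimulated gene in 1 animal minus the gene's mean over 24 animals, for the 30 genes that averaged 1 TPM or more, with animals in columns (cohort in brackets) and colours limited to ±1.5. The column of HD* 4 is above the gene mean in nearly every row, and ISG15 and MX1 show the widest colour range.

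A single VHD animal carried the highest levels of many members. HD* 4, from cohort 5 with an intake of 3.28 g/kg a day, was the highest of 24 animals in 16 of the 30 tested members, whereas it was the highest in 9.63% of all genes tested. It was above the median animal in 30 of 30 members, against 64.8% of all genes. Of the 8 members left out of the main tests, 5 also had their highest value in HD* 4, led by XAF1 with 2.83 TPM against 1.28 TPM in the next animal. At the low end, HD* 5 (HD, cohort 7a) was the lowest animal in 8 of 30 members, against 3.81% of all genes.

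A score was computed as the mean over the 30 members of log2(TPM + 1) centred on the 24-animal mean. Control scores ran from -0.208 to 0.419 with a median of 0.215. LD* scores ran from -0.258 to 0.245 with a median of -0.145. HD animals scored -0.470, -0.301, -0.200 and -0.186, and VHD animals -0.214, 0.026, 0.110 and 0.788. The 3 groups Control, LD* and HD* overlapped, and the VHD animal HD* 1 lay within the range of the HD animals.

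Controls averaged a score of 0.146 ± 0.237, LD* animals -0.090 ± 0.179 and HD* animals -0.056 ± 0.386 (SD, n = 8 each). The difference HD* minus Control was -0.202 over all cohorts, -0.322 without HD* 4, 0.016 within cohort 5 and -0.199 within cohort 7a. The difference LD* minus Control was -0.235 over all cohorts, -0.143 within cohort 7a and -0.427 within cohort 7b. Cohort 4 held no control. HD* minus LD* was 0.034 with all animals, -0.087 without HD* 4 and -0.056 within cohort 7a, the only cohort with both groups, so it had no stable sign.

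**Figure D2:**
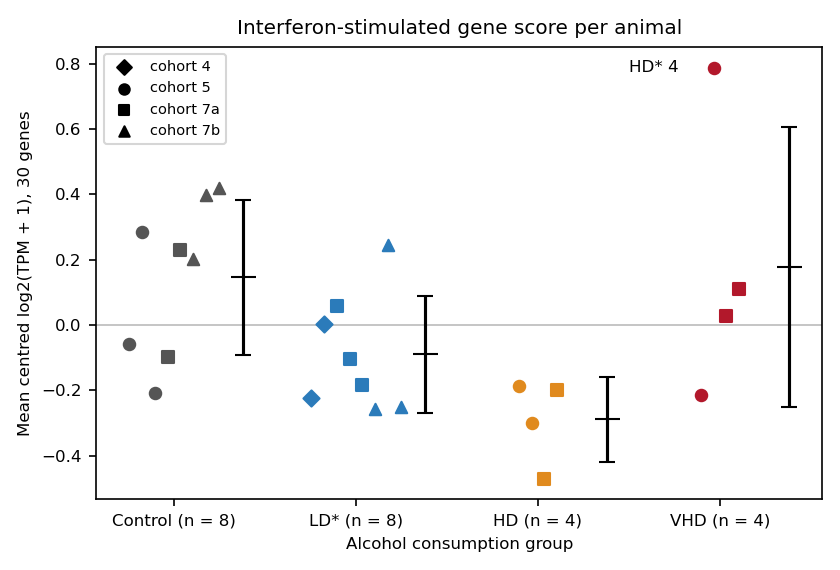
Interferon-stimulated gene score (mean centred log2(TPM + 1) over 30 genes) per animal for Control, LD*, HD and VHD, with marker shape for cohort and the bar giving mean ± SD. The 4 HD animals sit between -0.470 and -0.186, and HD* 4 at 0.788 is above all other animals.

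The first comparison asked whether chronic high intake changed these genes relative to control animals. Most members were lower in HD* than in Control, but none passed the test. In limma with Benjamini-Hochberg adjustment over 13637 genes, 0 of 30 members were called at an adjusted p under 0.05, with a background of 0.00% of all genes. The study's own DESeq2 test on read counts did call genes in HD* against Control at an FDR under 0.05, and fewer in HD* against LD*. The 0.00% here therefore describes the test on log2(TPM + 1) and is no sign that no gene differs. At an unadjusted p under 0.05, 3 of 30 members were lower and 0 higher, with a background of 5.29% of genes lower. By direction alone 29 of 30 members were lower, with a median log2 difference of -0.19, and 77.8% of all genes were lower with a median of -0.12. Rescaling by trimmed-mean (TMM) factors moved the median of all genes to -0.004, and 22 of 30 members were then lower, against 51.0% of all genes, with a member median of -0.09 and 0 members past an unadjusted p of 0.05. Relative to the median of all genes, the member median differed by -0.07 in the deposited TPM and by -0.09 after rescaling. Without HD* 4 and Control 6, 30 of 30 members were lower with a median of -0.30, against 79.3% of all genes with a median of -0.15. In that setting 7 members were lower at an unadjusted p under 0.05, with 12.6% of all genes lower. Cell markers differed in the same contrast, with median log2 differences of 0.44 for striatal neuron, -0.36 for oligodendrocyte, -0.20 for astrocyte and -0.06 for microglia markers and 0 of these called in limma (1 of 39 at an unadjusted p under 0.05), and -0.22 for endothelial and mural markers, of which 4 of 12 were lower at that level. The striatal neuron score (mean centred log2(TPM + 1) of these markers) averaged -0.26 in Control and 0.13 in HD*, with medians of 0.04 and 0.27. Control 6 scored -2.86 and the next lowest animal, Control 8, -1.01, so the neuron marker difference leaned on 1 library. With this score as a covariate the member median was -0.12, beside -0.14 for all genes.

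The 3 members with an unadjusted p under 0.05 have different roles. OAS2, which makes the 2-5A messenger that activates RNase L, had a lowest, median and highest TPM of 1.64, 2.29 and 2.97 in Control and 0.760, 1.47 and 3.06 in HD*. Its log2 difference was -0.33 (SE 0.14, limma adjusted p = 0.706). The groups overlapped over the whole control range, since HD* 4 was the highest and HD* 1 the lowest of all animals.

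STAT2, the transcription factor of ISGF3, ran from 15.5 through 22.1 to 33.2 TPM in Control and from 11.6 through 18.0 to 31.7 TPM in HD*, a log2 difference of -0.36 (SE 0.17, limma adjusted p = 0.706). PARP14, a mono-ADP-ribosyltransferase, ran from 1.55 through 2.33 to 3.24 TPM in Control and from 0.756 through 1.64 to 3.35 TPM in HD*, a log2 difference of -0.35 (SE 0.15, limma adjusted p = 0.706). In both genes HD* 4 lay near or above the top of the control range, and the other 7 HD* animals lay at or below 20.7 TPM for STAT2 and 1.89 TPM for PARP14. With cohort as a covariate, 25 of 30 members were lower with a median of -0.11, beside 78.1% of all genes with a median of -0.12.

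Grouped by role, most members were on the lower side in this comparison, as were 77.8% of all genes. The counts by role are for the deposited TPM, and no role was tested against that background. After TMM rescaling 22 members were lower and 8 higher, against 51.0% of all genes lower. Of the 11 antiviral effectors tested, 10 were lower with 0 past an unadjusted p of 0.05, and the exception was IFI6 at 0.09. All 3 oligoadenylate synthetases tested, all 3 RNA sensors (DDX58, IFIH1, DHX58), all 3 tested genes of the ISG15 system (ISG15, its E1 enzyme UBA7, and HERC6) and all 3 genes of the PARP9, PARP14 and DTX3L group were lower. The difference in IFI44 was -0.42 (SE 0.22) and in DTX3L, the ubiquitin ligase that pairs with PARP9, -0.38 (SE 0.19), both with a limma adjusted p of 0.706.

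The second comparison set the LD* group, light and binge drinkers combined, against the same controls. Members were again mostly lower and none passed: limma called 0 of 30 at an adjusted p under 0.05 (background 0.00%), and 2 of 30 were lower at an unadjusted p under 0.05, with a background of 2.54% of genes lower. By direction 29 of 30 members were lower, with a median log2 difference of -0.23, against 58.1% of all genes with a median of -0.03. After TMM rescaling 28 of 30 were lower with a median of -0.20, against 47.0% of all genes with a median of 0.01. Here the median log2 difference was 0.39 for striatal neuron, -0.47 for oligodendrocyte, -0.26 for astrocyte and -0.19 for microglia markers, with 0 called in limma and 1 of 39 at an unadjusted p under 0.05, and -0.17 for endothelial and mural markers, of which 3 of 12 were lower at that level. The striatal neuron score averaged -0.26 in Control and 0.13 in LD*, with medians of 0.04 and 0.23, and Control 6 at -2.86 again weighed on the control mean. With the striatal neuron score as a covariate the member median was -0.14, beside -0.05 for all genes. The part of cell composition in either comparison was not tested. HD* and LD* were compared with the same control animals, so the 2 sets of differences are not independent of each other.

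OAS2 had values of 0.818, 1.26 and 2.07 TPM in LD* (lowest, median, highest), and its log2 difference from Control was -0.54 (SE 0.14, limma adjusted p = 1.00). Of the LD* animals, 7 of 8 lay below the lowest control at 1.64 TPM, and LD* 4 at 2.07 TPM lay inside the control range. IFI27 ran from 22.4 through 37.8 to 50.7 TPM in LD* and from 38.8 through 59.0 to 83.9 TPM in Control. Its log2 difference was -0.74 (SE 0.25, limma adjusted p = 1.00), and it was -0.26 within cohort 7a and -1.12 within cohort 7b. OAS2 differed by -0.45 within cohort 7a and by -0.74 within cohort 7b.

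OAS1 differed by -0.50 (SE 0.27) and MX1 by -0.46 (SE 0.36) in LD* against Control, without passing. The only member above 0 was LGALS3BP, a secreted scavenger-receptor glycoprotein, at 0.04 (SE 0.24).

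Between HD* and LD*, limma called 0 of 30 members (background 0.00%), and at an unadjusted p under 0.05 only IFI27 was higher in HD*, 1 of 30 with a background of 0.33% higher. IFI27 ran from 25.1 through 53.5 to 108 TPM in HD*, a log2 difference of 0.59 from LD* (SE 0.25, limma adjusted p = 0.937). By direction 17 members were higher and 13 lower, with a median of 0.02 against -0.08 for all genes, of which 73.3% were lower. After TMM rescaling this split moved to 25 higher and 5 lower, with 51.1% of all genes lower. Without HD* 4 and Control 6 it was 6 higher and 24 lower, with 77.2% of all genes lower. The 16 drinkers pooled against Control gave 0 of 30 members in limma (background 0.00%), and 4 lower at an unadjusted p under 0.05 with a background of 5.07% lower. These were OAS2 (-0.44), PARP14 (-0.30), DTX3L (-0.36) and IFI27 (-0.44). After TMM rescaling 1 of 30 members was lower at this level (background 2.34% lower). The count was also 1 with cohort as a covariate (2.13%) or with the striatal neuron score as a covariate (5.32%).

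**Figure D3:**
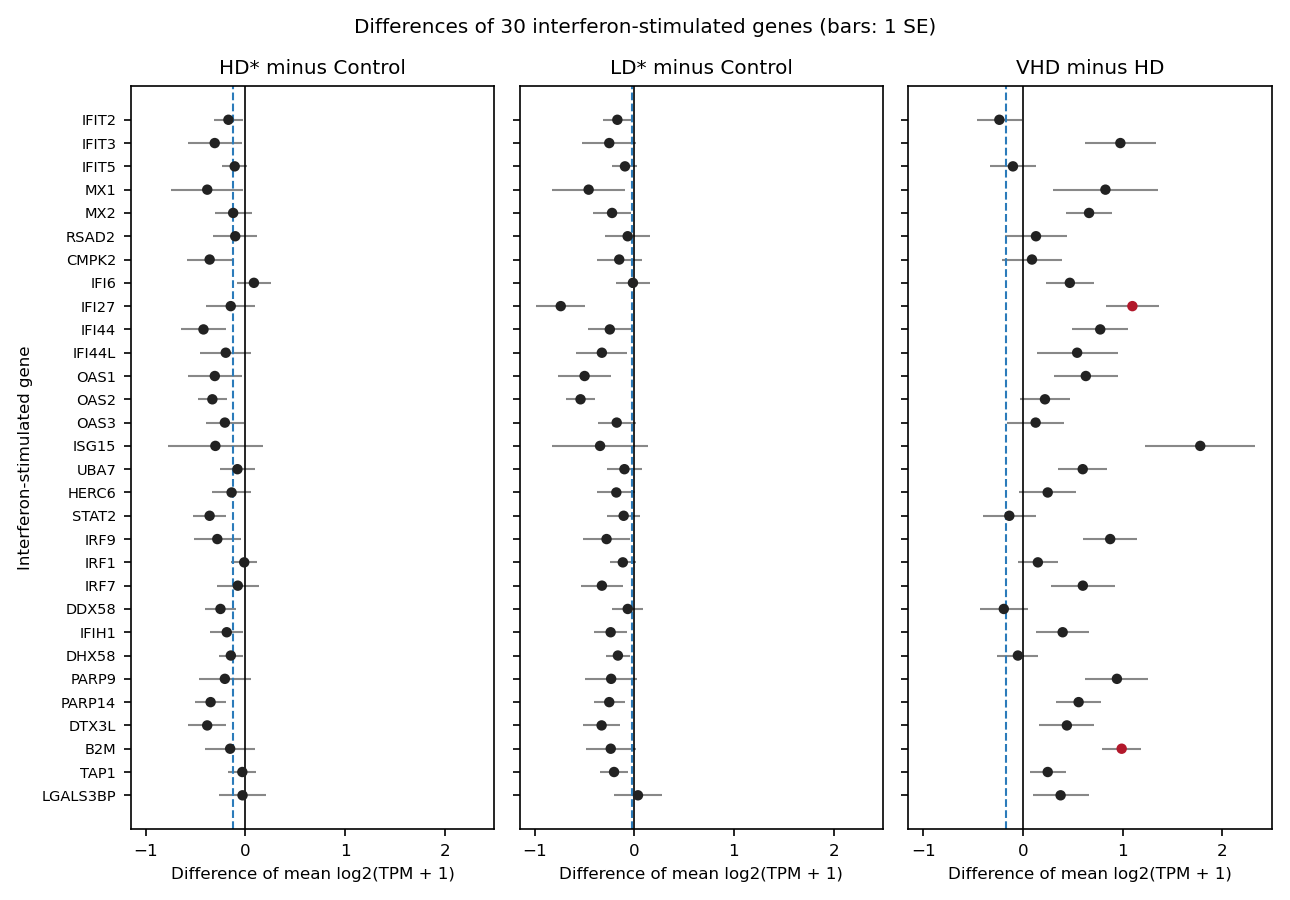
Log2 differences (points, mean of log2(TPM + 1)) with 1 SE (bars) for 30 interferon-stimulated genes in HD* minus Control, LD* minus Control and VHD minus HD, on a shared axis. Blue dashes mark the median of all 13637 genes and red points the genes past an adjusted p of 0.05. Most points are left of 0 in the first 2 panels, and B2M and IFI27 are the red points in the third.

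The contrast within the HD* group asked whether very heavy differed from heavy drinkers, 4 animals against 4. Here 2 of 30 members were called, B2M and IFI27, both higher in VHD. The background was 14.6% of all genes called and 3.23% called as higher, with 1556 of 13637 genes called as lower. Without adjustment, 10 of 30 members were higher at a p under 0.05 and 0 lower, with a background of 8.08% of genes higher. By direction 25 of 30 members were higher in VHD, with a median log2 difference of 0.45, whereas 65.2% of all genes were lower with a median of -0.17. After TMM rescaling 28 of 30 members were higher with a median of 0.63, while 47.5% of all genes were lower with a median of 0.03. Under that scaling 10 members were called, with 19.1% of all genes called and 9.65% called as higher. Without HD* 4, 22 of 30 members were higher with a median of 0.20, while 72.4% of all genes were lower with a median of -0.28. With the striatal neuron marker score described below as a covariate, 7 were higher and 23 lower with a median of -0.62. Of all genes 76.5% were then lower, with a median of -0.40.

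B2M had 352, 376, 452 and 504 TPM in the HD animals and 590, 817, 854 and 1143 TPM in the VHD animals. Every VHD animal lay above every HD animal. The log2 difference was 0.99 (SE 0.19, limma adjusted p = 0.00958), and it was 0.78 within cohort 5 and 1.20 within cohort 7a, with 2 animals against 2 in each. An exact two-sided permutation test gave p = 0.0286, the smallest that 4 against 4 allows. Controls ranged from 382 to 1224 TPM and so covered both subgroups.

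IFI27 had 25.1, 33.4, 39.3 and 56.4 TPM in HD and 50.6, 78.1, 96.2 and 108 TPM in VHD. The subgroups overlapped by 1 animal on each side, HD* 7 at 56.4 and HD* 1 at 50.6 TPM. The log2 difference was 1.10 (SE 0.27, limma adjusted p = 0.0207), with 1.09 within cohort 5 and 1.10 within cohort 7a, and the exact two-sided permutation p was 0.0571. With any 1 of the 8 animals left out, B2M was still called in 8 of 8 fits and IFI27 in 4 of 8. IFI27 was lost without HD* 2, HD* 3, HD* 5 or HD* 6, with a highest adjusted p of 0.0825.

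Another 3 members lay just outside the threshold. ISG15, the ubiquitin-like modifier, had 3.96, 4.25, 5.09 and 7.53 TPM in HD and 5.26, 14.4, 26.8 and 68.5 TPM in VHD, a log2 difference of 1.78 (SE 0.55, limma adjusted p = 0.0505). IRF9, the DNA-binding part of ISGF3, had 11.7, 17.5, 18.6 and 18.7 TPM in HD and 18.3, 28.5, 33.9 and 50.4 TPM in VHD, a log2 difference of 0.87 (SE 0.27, adjusted p = 0.0506 in limma). PARP9 had 1.31, 1.88, 2.57 and 3.07 TPM in HD and 2.90, 3.86, 5.18 and 10.2 TPM in VHD, a log2 difference of 0.94 (SE 0.32, limma adjusted p = 0.0634). In all 3 genes HD* 4 was highest and HD* 1 was the VHD animal that overlapped with HD. Without HD* 4 the difference in ISG15 was 1.20 and in IRF9 0.64, and both were then called (limma adjusted p = 0.0387 and 0.0495), with an SE of 0.40 beside 0.55 and of 0.23 beside 0.27.

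MX2, IFIT3, IFI44, PARP14 and UBA7 were the other members with an unadjusted p under 0.05, with log2 differences between 0.56 and 0.98. PARP14 was, beside B2M, the only member in which every VHD animal lay above every HD animal, 2 of 30 with a background of 5.39% of genes. The 5 members lower in VHD were IFIT2 (-0.24), DDX58 (-0.19), STAT2 (-0.14), IFIT5 (-0.10) and DHX58 (-0.05), none past the test, with SEs from 0.20 to 0.27. STAT2 and IRF9, partners in 1 complex, had differences of opposite sign, of which neither passed the test. Of the transcription factors, IRF7 was dominated by 1 library, since HD* 8 had 5.998 TPM and the other 7 HD* animals 0.866 to 1.62 TPM.

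**Figure D4:**
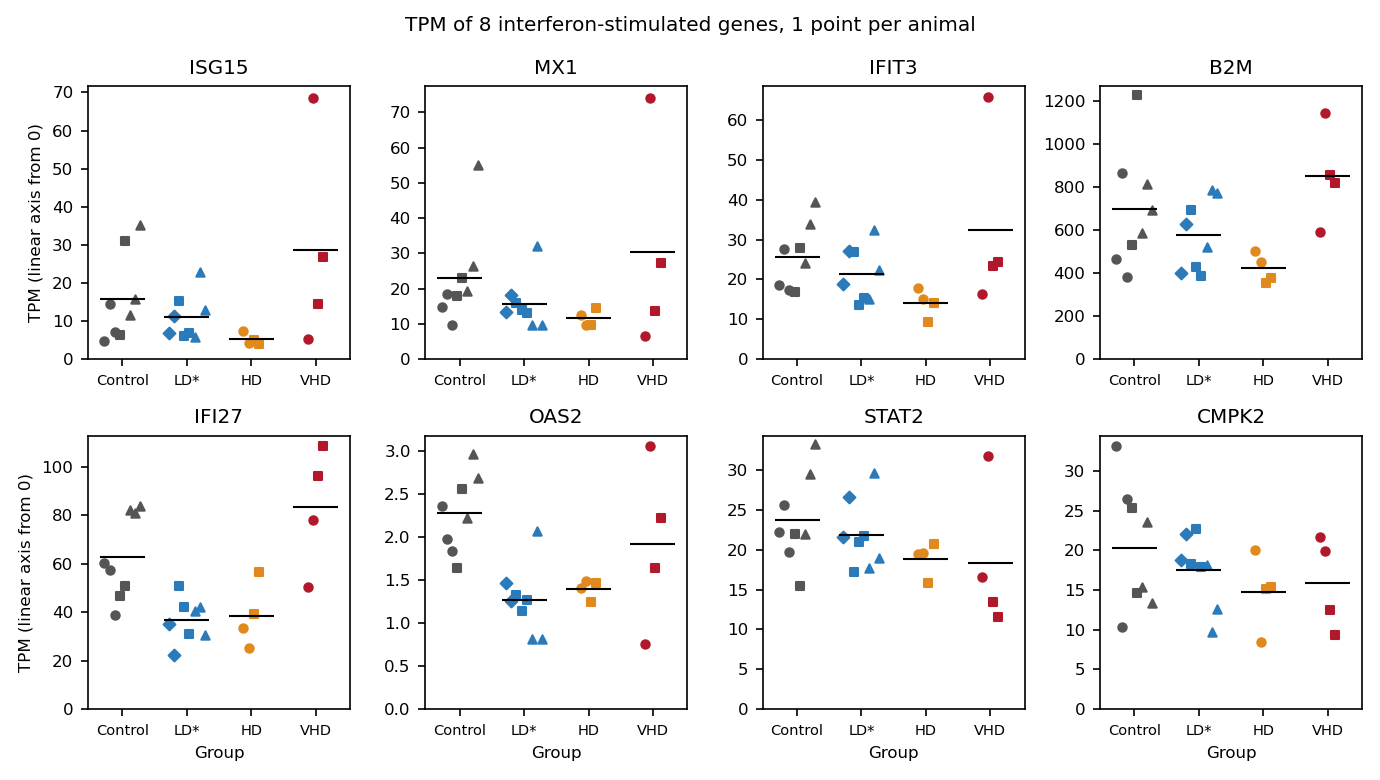
TPM of 8 interferon-stimulated genes per animal (linear axis from 0) in Control, LD*, HD and VHD, with a line at the mean and marker shape for cohort as in the score plot (circle 5, square 7a, triangle 7b, diamond 4). VHD animals lie above HD animals in B2M, and single animals reach 68.5 TPM in ISG15 and 74.1 TPM in MX1.

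Cell markers moved with the same split of VHD and HD. The summed TPM of 10 striatal neuron markers was 9420 to 11026 in HD and 3769 to 6391 in VHD. Of these markers 8 of 10 were called lower in VHD, DRD1 (-1.20) among them, with 1556 of 13637 genes called as lower. Summed microglia markers were 406 to 528 TPM in HD and 530 to 921 TPM in VHD, with 6 of 13 called higher, and summed astrocyte markers were 2222 to 3906 and 4951 to 7878 TPM, with 2 of 8 called higher (GFAP 1.39 and S100B 1.09). Among 8 oligodendrocyte markers 1 was called higher, among 12 endothelial and mural markers 0, and among 8 blood markers 1 higher. With the striatal neuron score as a covariate, an alternative chosen after the data were seen, 0 members and 0 genes were called and the difference in B2M was -0.17 (SE 0.45). The striatal neuron score did not overlap between HD (0.52 to 0.71) and VHD (-0.60 to 0.02), so the covariate and the subgroup cannot be told apart in these 8 animals. The part of cell composition in the VHD and HD difference was not tested.

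Over all 24 animals, the member score followed the same markers. Its Pearson r was 0.82 with the astrocyte marker score, 0.67 with the microglia score and -0.67 with the striatal neuron score, and Spearman's rho was 0.77, 0.63 and -0.69. Without the 2 animals farthest from the median of each marker score, r was 0.76, 0.68 and -0.68. Within cohorts 5, 7a and 7b (7, 9 and 6 animals) r was 0.88, 0.83 and 0.92 with the astrocyte score, 0.78, 0.74 and 0.67 with the microglia score, and -0.82, -0.87 and -0.56 with the striatal neuron score. These are descriptions with no test, and both measures of an animal come from 1 library. Single members behaved unequally. Of 30 members, 19 had r above 0.5 with the astrocyte score, against 20.2% of all genes, and 12 had r below -0.5 with the striatal neuron score, against 17.5% of all genes. ISG15 and IRF9 had r of -0.78 and -0.79 with the striatal neuron score, whereas RSAD2 and CMPK2, a radical-SAM enzyme and a mitochondrial nucleotide kinase that act together against viral replication, had 0.39 and 0.38.

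**Figure D5:**
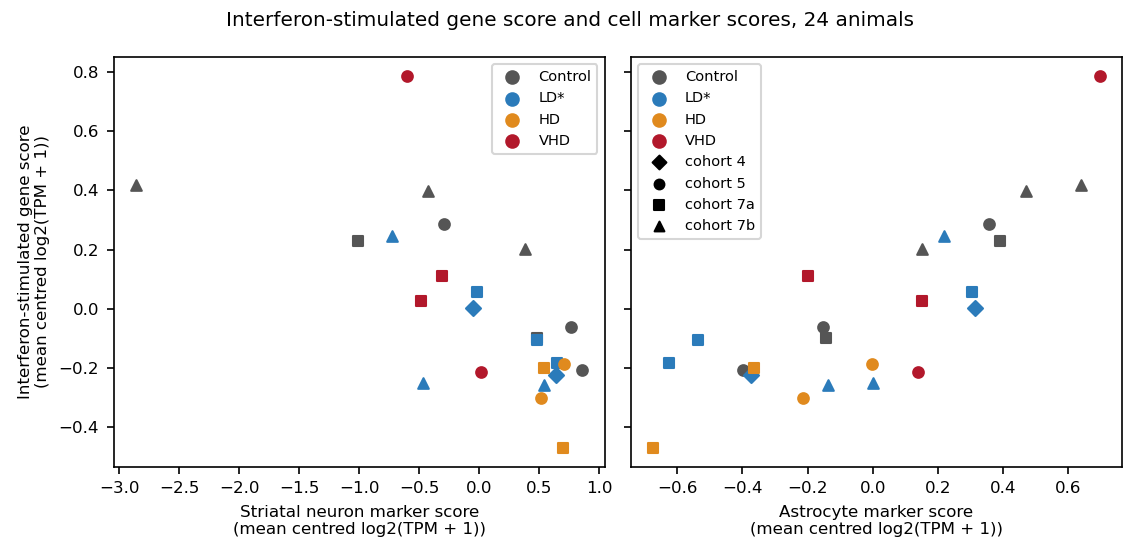
Member score against the striatal neuron marker score (left) and the astrocyte marker score (right) for 24 animals, coloured by group with marker shape for cohort; all axes are mean centred log2(TPM + 1). The score falls to the right in the left panel (r = -0.67) and rises in the right panel (r = 0.82).

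Correlations between members next to each other in the genome were set beside those of all other member pairs. In the RefSeq annotation of assembly T2T-MMU8v2.0, which is not the assembly of the reads and was used for gene order only, all 38 members matched, and 9 pairs of them are adjacent, 6 with both genes tested. The other 429 pairs of tested members had a median r of 0.43 over 24 animals, from -0.51 to 0.94. DTX3L and PARP9, which share a promoter region, had r = 0.91 and rho = 0.90, above 99.5% of those pairs, and r was 0.88 without the 2 farthest animals and 0.95, 0.80 and 0.98 within cohorts 5, 7a and 7b. MX1 and MX2 had r = 0.72, above 87.6% of the other pairs. OAS1 and OAS3 (0.63), RSAD2 and CMPK2 (0.62) and IFI44 and IFI44L (0.61) lay above 73.2% to 76.0% of them. IFIT2 and IFIT3 had r = 0.23 and rho = 0.16, above 30.3% of the other pairs, with 0.28, -0.30 and 0.71 within the 3 cohorts. These are descriptions with no test, since all pairs are measured in the same animals. HD* 4 had 65.7 TPM of IFIT3, the highest of all animals, and 13.3 TPM of IFIT2, inside the control range of 7.78 to 17.3.

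Intake among the 16 drinkers was not associated with any member after adjustment. limma called 0 of 30 (background 0.00%), and at an unadjusted p under 0.05 only IFI27 had a positive slope, 0.41 on the log2 scale per g/kg a day (SE 0.14, limma adjusted p = 0.512), 1 of 30 with a background of 1.49%. The member score had r = 0.12 and rho = 0.08 with intake over 16 drinkers, and r = 0.28 without the 2 farthest animals. The cohort terms called 0 members and had 0 of 30 at an unadjusted p under 0.05 (background 8.36%), and the difference between the HD* effects in cohorts 5 and 7a gave 0 and 0 of 30 (background 2.16%) in limma.

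The other genes of the pathway gave no call in the comparisons with controls. Of 5 receptor genes, 6 signal transducers, 8 sensors and adaptors, 9 negative regulators, 29 other interferon-induced genes and 12 antigen presentation genes tested, limma called 0 of 69 in HD* or in LD* against Control. At an unadjusted p under 0.05, 8 of the 69 were lower in HD* (background 5.29%) and 13 in LD* (background 2.54%). Among them the receptor chain IFNAR1 was lower in HD* (27.0 ± 3.55 TPM in Control, 20.2 ± 5.90 in HD*, log2 difference -0.43, limma adjusted p = 0.706), and 9 of the 29 other interferon-induced genes were lower in LD*, led by TNFSF10, the death ligand TRAIL (25.1 ± 5.91 TPM in Control, 13.8 ± 4.50 in LD*, log2 difference -0.83, limma adjusted p = 1.00).

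In VHD against HD, where 14.6% of all genes were called, 3 of 29 other interferon-induced genes were called, 1 higher and 2 lower, among them the GTPase GBP1 (0.93, limma adjusted p = 0.0237) and PML, the organizer of nuclear bodies (-0.68, adjusted p = 0.0375). At an unadjusted p under 0.05, 7 of the 29 were higher and 2 lower, with backgrounds of 8.08% higher and 24.6% lower. Their median log2 difference was 0.26, beside -0.17 for all genes. Of 12 antigen presentation genes 2 were called higher, the direction of B2M, and 4 lower, the opposite direction. Among the 4 were the peptide-loading chaperones TAPBP at -1.14 and CALR at -0.65. Of all 13637 genes 3.23% were called as higher and 1556 genes as lower. Of the 8 sensors and adaptors 1 was called lower, TICAM1 (-0.80), and of the receptors, transducers and negative regulators 0, with 1 of these 20 at an unadjusted p under 0.05 (TRIM21, 0.62).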

How the data were processed

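Per the study's methods, poly(A)-selected libraries were sequenced, reads were aligned to the MacaM assembly with STAR 2.5.2b allowing 1 location per read, and genes were counted with HTSeq 0.6.1p1. The paper describes stranded paired-end libraries and the public record unstranded single-end ones, so overlapping genes are uncertain. The deposited values are TPM computed by the authors, with gene lengths not given in the sources used here; each column sums to about 1e+06, read counts were not used here and the depth behind a value is unknown, so no counting interval is given.

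Values were tested as log2(TPM + 1), with fold changes of low genes understated, for the 13637 genes averaging 1 TPM or more, with limma 3.58.1 (R 4.3.3, empirical Bayes with trend) and Benjamini-Hochberg adjustment over all genes. The study's count model could not be used on TPM. Control, LD* and HD* shared 1 model without covariates, and VHD and HD, and intake among drinkers, had their own. Correlations, scores and exact tests used Python 3.11.15 and scipy 1.17.1. The fit was tested on simulated data. Groups, intake and cohort came from the public labels.

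Marker lists covered striatal neurons, astrocytes, microglia, oligodendrocytes, endothelial and mural cells, and blood. The members and lists were chosen with earlier results of these data known. Members described with values were drawn from the 5 with the smallest p in each contrast and the 8 with the largest spread. Not all of these are given (TAP1 is not), nor in each contrast that selected them. Others were added where a role or a count required it. Alternatives were pseudocounts of 0.1 and 8, a minimum of 10 TPM or none, TMM rescaling, cohort as a covariate, subsets of cohorts or groups, array weights and leaving out each animal. After seeing the data, 2 settings were added, the striatal neuron score as a covariate, and leaving out HD* 4 and Control 6 together.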

Additional observations from a re-analysis of the deposited data

Results flagged for a closer look

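Of 60 groups of 8 animals checked (20 measures in 3 groups), 12 had 1 animal far from the others by Dixon's criterion. Chance gives about 1 in 20 only for independent, normally distributed values, whereas these are TPM of genes measured in the same animals, and 8 of the 19 genes checked were chosen for a large SD, so the number of such animals is no measure of excess. Of the 12, 9 were HD* 4. Its member score was 0.788, against -0.470 to 0.110 in the other HD* animals. Its astrocyte marker score, 0.696, was also the highest of all animals. It had 68.5 TPM of ISG15 (others 3.96 to 26.8), 74.1 TPM of MX1 (6.57 to 27.2), 65.7 TPM of IFIT3 (9.41 to 24.5), 31.7 TPM of STAT2 (11.6 to 20.7), 10.2 TPM of PARP9 (1.31 to 5.18), 5.56 TPM of IFI44L (0.282 to 2.28), 5.06 TPM of DTX3L (0.976 to 2.58) and 3.35 TPM of PARP14 (0.756 to 1.89). HD* 8 had 5.998 TPM of IRF7 (others 0.866 to 1.62). MX1 also stood apart in Control 6, with 55.1 TPM against 9.76 to 26.3, and in LD* 4, with 32.1 TPM against 9.68 to 18.1.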

How the results depend on the processing

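In HD* against Control, LD* against Control, HD* against LD*, all drinkers against Control, the intake slope, the cohort test and the cohort interaction, 0 members were called under every alternative run. At an unadjusted p under 0.05, limma array weights gave 10 lower members in HD* against Control (9.22% of all genes lower) and 4 in LD* against Control (9.11%), beside 3 and 2. The HD* count was 1 with cohort as a covariate (3.34% of all genes lower) or with the neuron score as a covariate (8.83%). With the compared groups alone it was 1 (3.19%), and with genes of at least 10 TPM it was 1 of 14 members (3.45%). It was 0 in cohorts 5 and 7a (1.29%) or with TMM rescaling (1.57%), and 7 without HD* 4 and Control 6 (12.6%).

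The VHD against HD count of 2 of 30 members (14.6% of all genes) was 4 of 14 with genes of at least 10 TPM (23.8%). With no filter it was 1 of 38 (8.18%). Of 30 members it was 10 with TMM rescaling (19.1%), 3 with a pseudocount of 0.1 (14.4%) and 4 with cohort as a covariate (20.2%). It was 4 without HD* 4 and Control 6 (34.1%), and 0 with the striatal neuron score as a covariate. Leaving out 1 animal gave 1 (without HD* 2, HD* 5 or HD* 6) to 7 (without HD* 1), with 4 without HD* 4. The count of all genes moved as well in these fits, so the member counts alone are no result about the members. The count of all genes, 1997, was 0 with the neuron covariate and between 476 (without HD* 6) and 4651 (without HD* 4). With that covariate the differences of B2M (-0.17), ISG15 (-1.74), IRF9 (-0.92) and PARP9 (-0.57) turned negative; the cause was not tested.

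In units of each gene's SD, the member score differed by -0.541 (LD* minus Control), -0.506 (drinkers minus Control) and 0.921 (VHD minus HD), a change of unit. The cohort interaction called 14 genes, of which 0 members, without Control 7, and 1 gene without Control 2. No paired analysis was possible because replicate numbers only name animals. Depth is unknown, so members under 1 TPM entered the group tests only in the setting with no filter.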
